A study of Mus musculus with 4 samples.

Results

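The 10 genes described here are the principal readers and erasers of N6-methyladenosine (m6A), chosen by gene name: the YTH readers Ythdf1, Ythdf2, Ythdf3, Ythdc1 and Ythdc2, the IGF2BP readers Igf2bp1, Igf2bp2 and Igf2bp3, and the erasers Fto and Alkbh5. All 10 were found by symbol among the 55401 genes of the deposited table. They were measured by sequencing of poly(A) RNA in mouse bone marrow-derived macrophages, grown with M-CSF and then kept together with the mouse colon carcinoma line MC38 for 24 h. The knockout group held 2 libraries (numbered 1 and 3) from 8-week C57BL/6 mice with both alleles of Mettl3 floxed and the LysM-cre driver. The control group held 2 libraries (also numbered 1 and 3) from 8-week C57BL/6 mice with the floxed alleles and no driver. The co-culture with MC38 was common to every library, so there was no group without tumour cells. LysM-cre is expressed in myeloid cells, and the labels give neither the deleted exons nor how many mice each library came from.

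As background, m6A is written on mRNA by a complex whose catalytic subunit is Mettl3, within a short sequence context. Readers are proteins that bind the methylated base: the YTH family through a YTH domain that encloses it, the IGF2BP family through KH domains. Erasers are dioxygenases that remove the methyl group. In macrophages and other innate immune cells these proteins are known for setting the lifetime of cytokine and interferon mRNAs. The comparison asks whether the mRNAs of the readers and erasers differ in macrophages in which the writer has been targeted.

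Total counts were 62563556 and 79209870 in the knockout libraries and 55100415 and 61075754 in the control libraries. Low counts held an excess of multiples of 4, so a read pair may have given about 4 counts, and 12 counts were taken as the lowest level read as present (0.151 to 0.218 CPM, counts scaled for library size, which covers counting error only). The targeted gene Mettl3 stood at 13.9 and 19.6 CPM in knockouts 1 and 3, against 18.3 and 23.2 CPM in controls 1 and 3. The ranges overlapped, and the pooled log2 difference was -0.31 (edgeR unadjusted p = 0.306). Knockout was the lower within both numbers, by -0.40 for number 1 alone and -0.25 for number 3 alone. A count over the whole gene cannot check the label. All 10 macrophage markers were tested and summed to 42197 and 44100 CPM in the knockouts, against 40273 and 55562 CPM in the controls. Lyz2, the lysozyme gene, made up most of that sum, with 25451 and 25785 CPM in knockouts 1 and 3, against 22069 and 40813 CPM in controls 1 and 3. The integrin gene Itgam had 2669 and 2119 CPM in the knockouts, against 3171 and 884 CPM in the controls, so control 3 was the high library for Lyz2 and the low one for Itgam. Of 11 epithelial and carcinoma markers, 6 had no count in any library, among them Epcam, Krt8 and Krt18. The male transcript Ddx3y and the female transcript Xist split the libraries by number, not by genotype (Xist had 1161 and 1351 CPM in the knockout and control numbered 3, against 0.624 and 0.589 CPM in those numbered 1), so number and the sex pattern cannot be told apart. For each of the 10 readers and erasers the difference is accordingly also given for number 1 and number 3 alone.

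The paralogs among the members can be told apart by reads of 150 bases. The longest run of identical bases between the transcripts with the longest coding parts was 22 bases for Ythdf1 and Ythdf2, and 17 bases for each of these with Ythdf3. No 31-base stretch of coding sequence was shared within the YTHDF, YTHDC, IGF2BP or eraser group. The run shared by Ythdf1 and Ythdf2 and the coding run shared by Igf2bp1 and Igf2bp2 are shown as examples of how short the identical stretches are against a read. Each line gives the run in capitals with 15 bases of coding sequence on both sides, 5′ to 3′ on the transcribed strand, from GENCODE M21 (GRCm38).
Ythdf1 (chr2:180911595-180911646, minus strand): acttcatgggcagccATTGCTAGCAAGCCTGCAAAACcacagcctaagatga
Ythdf2 (chr4:132205088-132205139, minus strand): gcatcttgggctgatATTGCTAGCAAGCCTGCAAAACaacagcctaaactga
Igf2bp1 (chr11:96005491-96005540, minus strand): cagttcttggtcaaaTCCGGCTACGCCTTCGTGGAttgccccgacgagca
Igf2bp2 (chr16:22162818-22162867, minus strand): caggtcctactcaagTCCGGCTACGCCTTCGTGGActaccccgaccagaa
The longest run of all, 28 bases between Igf2bp2 and Igf2bp3, did not lie within both coding parts. By the deposited coordinates, 6 members overlapped no other gene. Of the overlaps of the other 4, the one with a gene of similar or higher count was that of Igf2bp3, which shares 1529 bases with Malsu1 on the opposite strand (7.29 and 7.61 CPM in the knockouts, 8.93 and 5.09 CPM in the controls). No source used here says whether counting used the strand, so the low level of Igf2bp3 is uncertain.

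The readers and erasers spanned a wide range of mRNA levels. By the authors' FPKM (a level scaled for gene length and library size), Ythdf3 averaged 29.4 over the 4 libraries, Alkbh5 24.9, Ythdf1 19.98 and Ythdf2 14.8. Next came Ythdc1 at 5.98, Igf2bp2 at 5.26, Fto at 3.64 and Ythdc2 at 2.11 FPKM. Igf2bp3 at 0.320 FPKM and Igf2bp1 at 0.0597 FPKM closed the order. Neighbours in this order whose ranges over the 4 libraries did not overlap were Ythdf2 and Ythdc1, Fto and Ythdc2, Ythdc2 and Igf2bp3, and Igf2bp3 and Igf2bp1. The other neighbours overlapped and were not separated by range. Of these pairs, Ythdf1 did stand above Ythdf2 in each library. It had 20.3 and 23.2 FPKM against 14.8 and 17.1 in knockouts 1 and 3, and 20.0 and 16.4 against 13.3 and 14.0 in controls 1 and 3.

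The position of Ythdc1 and Fto in that order rests on the gene length the authors used. The length implied by count and FPKM stood at 1.11 to 1.14 times the union of all annotated exons for the members. In knockout 1, 96.0% of 12076 genes with at least 100 counts lay within 1% of the median ratio, 1.11. Such a union includes retained introns. For Ythdc1 (chromosome 5, 86804221 to 86836659) it was 13651 bases, 4.18 times its longest coding transcript, and for Fto (chromosome 8, 91313525 to 91668439) it was 13031 bases, 2.77 times. For Ythdf1, Ythdf2, Ythdf3 and Alkbh5 the ratio was 1.04 to 1.11. Per kilobase of the longest coding transcript, a length chosen after the data were seen, Ythdc1 averaged 27.8 CPM and had rank 3, against 34.4 for Ythdf3, 28.95 for Alkbh5, 23.2 for Ythdf1 and 18.3 for Ythdf2. Counts over the whole gene were divided by that length, so reads from exons outside that transcript can raise the value. The size of this is not known, and it can be largest where the ratio is high, as for Ythdc1 and Fto. Fto averaged 11.2 CPM per kilobase on that scale and Igf2bp2 11.1. By these means Ythdf3 and Alkbh5 stayed first and second, and Ythdc2, Igf2bp3 and Igf2bp1 last. The ranges of Ythdf3 (30.8 to 39.0), Alkbh5 (24.5 to 33.9) and Ythdc1 (23.7 to 36.2) overlapped, so these 3 were not separated by range. Library by library, Ythdf3 nevertheless stood above Ythdc1 each time. It had 30.8 and 39.0 against 26.0 and 36.2 in knockouts 1 and 3, and 31.5 and 36.4 against 23.7 and 25.2 in controls 1 and 3. In knockout 3 and control 3, Ythdc1 stood at 36.2 and 25.2, above Alkbh5 at 26.8 and 24.5.

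**Figure D1:**
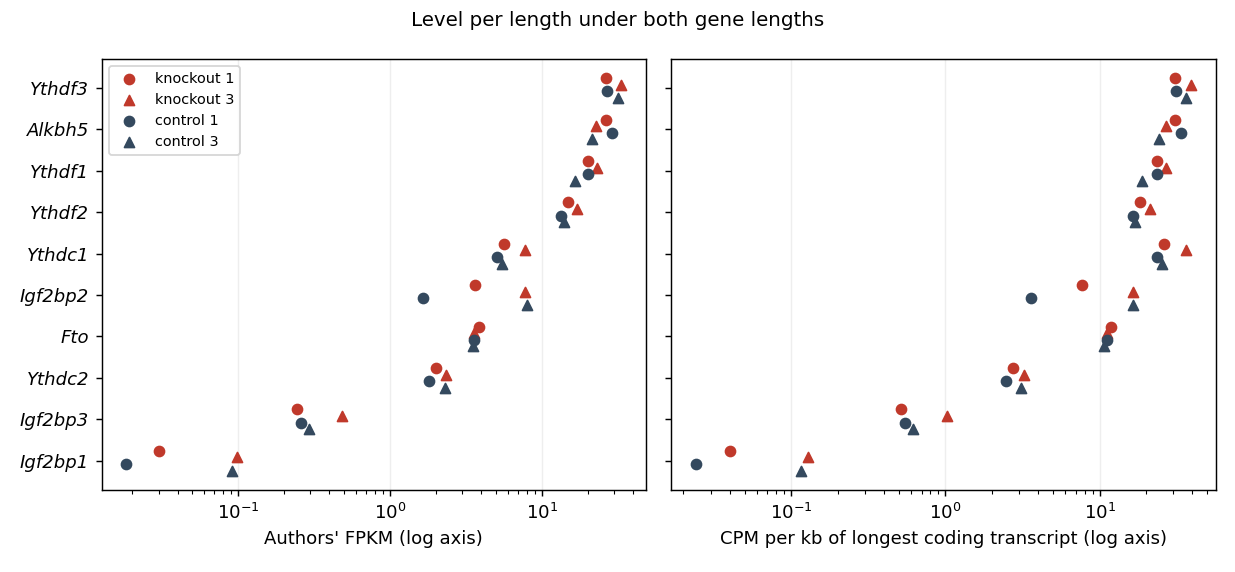
Level per length of the 10 genes in each library, as the authors' FPKM (left) and as CPM per kilobase of the longest coding transcript (right), both on log axes; red points are knockouts, dark points controls, circles number 1, triangles number 3. Ythdc1 stands at 5.06 to 7.74 FPKM on the left and at 23.7 to 36.2 CPM per kilobase on the right, where its range overlaps those of Ythdf3, Alkbh5 and Ythdf1.

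None of the 10 genes was called between knockout and control macrophages. All 10 passed the filter on low counts, and edgeR called 0 of them at an adjusted p under 0.05 (0 of 17260 genes tested, a background of 0%). Their unadjusted p ran from 0.168 to 0.926, so 0 were under 0.05, against 391 of all genes. DESeq2 called 0 of the 10 as well, with 0 at an unadjusted p under 0.05, where it called 73 genes in all and had 607 under 0.05. It was run on every gene with a count, without edgeR's filter on low counts, so its totals are not over the same 17260 genes. Log2 fold changes ran from -0.02 (Alkbh5) to 0.40 (Igf2bp3), and 9 of the 10 lay above 0, with a median of 0.25. Over all tested genes 49.8% lay above 0 and the median was -0.0013. Both knockouts stood above both controls for 4 members (Ythdf1, Ythdf2, Ythdc1 and Fto) and below them for 0, where 13.1% of all tested genes stood above and 13.4% below. The series calls the libraries biological replicates without saying how many animals they stand for, so every p measures the spread between these libraries only. The genotype fit held no term for number, so its standard errors, intervals and p also include the difference between numbers. With number in the fit, edgeR called 0 of the 10, and 0 had an unadjusted p under 0.05 (smallest 0.0922, Ythdc1). Of the marker lists, edgeR called 0 genes by genotype. All 10 fibroblast and stromal markers had a pooled log2 difference below 0 (median -0.53), with medians of -0.32 within number 1 and -0.67 within number 3. All 10 cell cycle genes had a pooled difference above 0 (median 0.33), but the median was 0.54 within number 1 and -0.34 within number 3, where 8 of the 10 lay below 0. Of 6 tested dendritic cell markers, 5 lay above 0 (median 0.58), with medians of 0.29 within number 1 and 0.25 within number 3. The dendritic list summed to 15.1 and 31.4 CPM in the knockouts, against 11.8 and 17.2 CPM in the controls. Most of that sum was the integrin gene Itgax, with 9.39 and 27.3 CPM in the knockouts, against 6.57 and 12.7 CPM in the controls. Ccr7 went the other way, with a log2 difference of -0.49. Flt3 was near the floor, with counts of 14 and 8 in the knockouts, against 0 and 10 in the controls. Of 4 tested neutrophil markers, 3 lay above 0 (median 0.29). The other, Mpo, had a log2 difference of -2.04, with counts of 0 and 24 in the knockouts, against 8 and 70 in the controls. S100a9, among those above 0, had counts of 0 and 91 in the knockouts, against 0 and 63 in the controls. The part of these lists in the members' values was not tested. In what follows each group has n = 2, SE stands for the standard error, and adjusted p is that of edgeR's quasi-likelihood test with Benjamini-Hochberg adjustment.

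**Figure D2:**
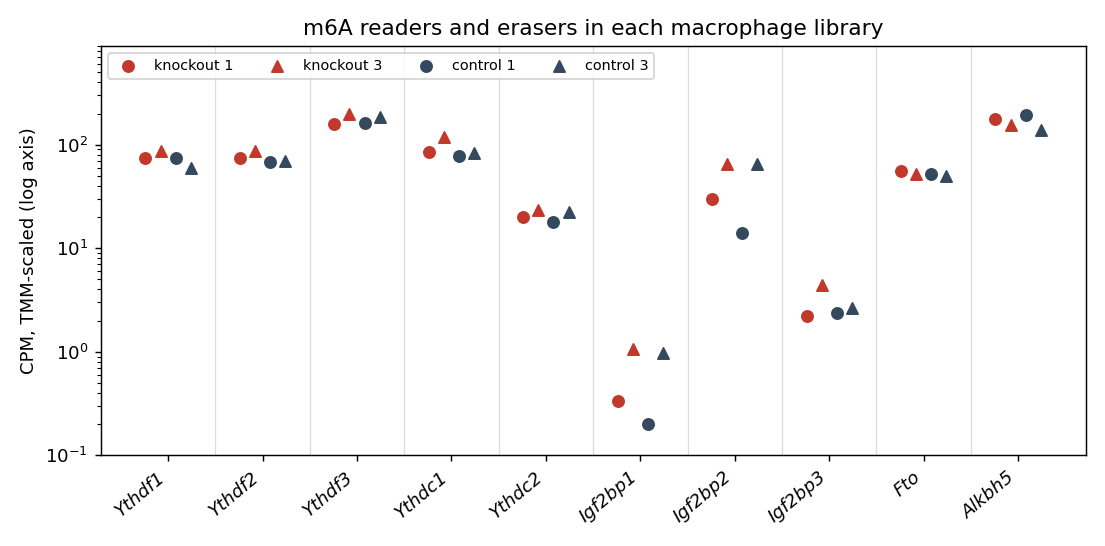
TMM-scaled CPM of each gene in each library on a log axis, with knockouts in red left of the controls in dark blue, circles for number 1 and triangles for number 3. Igf2bp1 and Igf2bp2 spread 5.30-fold and 4.65-fold over the 4 libraries, while Fto spreads 1.12-fold.

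Among the cytoplasmic readers, Ythdf1 (chromosome 2, 180904377 to 180920949), which is known for promoting translation of methylated mRNAs, had 74.6 and 86.3 CPM in knockouts 1 and 3, against 74.5 and 59.7 CPM in controls 1 and 3. Knockout 1 and control 1 were nearly level, and control 3 was the lowest of the 4. Its log2 difference was 0.26 ± 0.19 (SE; adjusted p = 1.00 in edgeR), with a 95% interval of -0.24 to 0.76. The difference was 0.0018 within number 1 and 0.53 within number 3. Ythdf2 (chromosome 4, 132184912 to 132212303), which brings the CCR4-NOT deadenylase to methylated mRNAs, had 75.1 and 87.8 CPM in the knockouts, against 68.4 and 70.4 CPM in the controls. Both knockouts lay above both controls by a small margin. Its log2 difference was 0.23 ± 0.16 (SE; adjusted p = 1.00 in edgeR; 95% interval -0.19 to 0.65), or 0.14 for number 1 alone and 0.32 for number 3 alone. The interval excludes a rise or a fall by 2-fold for both genes.

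Ythdf3 (chromosome 3, 16183212 to 16217037), a cofactor of the other YTHDF proteins in translation and decay, had 156.9 and 199.1 CPM in the knockouts, against 160.9 and 185.8 CPM in the controls. The libraries numbered 3 were the higher in both groups, and the groups overlapped. Its log2 difference was 0.04 ± 0.19 (SE; adjusted p = 1.00 in edgeR; 95% interval -0.47 to 0.55), or -0.04 for number 1 alone and 0.10 for number 3 alone. Of the summed FPKM of the 3 YTHDF genes, Ythdf3 held 42.9% and 45.1% in the knockouts, against 44.5% and 50.9% in the controls. Ythdf1 held 33.0% and 31.6% in the knockouts, against 33.3% and 26.5% in the controls. Ythdf2 held 24.1% and 23.3% in the knockouts, against 22.2% and 22.6% in the controls. The share of Ythdf2 differed by 1.31 percentage points, with no overlap between the groups (exact two-sided permutation p = 0.333, which is the smallest that 2 against 2 allows).

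The nuclear reader Ythdc1, known for roles in splicing and export of methylated RNA, had 85.0 and 118.4 CPM in the knockouts, against 77.6 and 82.5 CPM in the controls. Knockout 3 was the highest library, and knockout 1 lay just above both controls. Its log2 difference was 0.35 ± 0.21 (SE; edgeR unadjusted p = 0.168, adjusted p = 1.00; 95% interval -0.21 to 0.90), and this was the smallest unadjusted p of the 10. Within number 1 the difference was 0.13, and within number 3 it was 0.52. Without knockout 3 the log2 difference was 0.0865, and without knockout 1 it was 0.582. Ythdc2 (chromosome 18, 44827746 to 44889717), an RNA helicase with a YTH domain that is known from the meiotic germ line, had 19.8 and 23.2 CPM in the knockouts, against 17.9 and 22.3 CPM in the controls. The groups overlapped, with a log2 difference of 0.10 ± 0.22 (SE; adjusted p = 1.00 in edgeR; 95% interval -0.49 to 0.68). It was 0.15 for number 1 alone and 0.05 for number 3 alone.

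The IGF2BP readers, which are known for stabilising the mRNAs they bind, varied most. Igf2bp2 (chromosome 16, 22059009 to 22163299) had 30.0 and 64.7 CPM in knockouts 1 and 3, against 13.9 and 64.5 CPM in controls 1 and 3. Control 1 was the lowest, knockout 1 next, and both libraries numbered 3 were level. Its log2 difference between knockout and control was 1.11 within number 1 and 0.0045 within number 3, and whether these differ could not be tested with 1 library of each kind. The pooled log2 difference was 0.27 ± 0.80 (SE; adjusted p = 1.00 in edgeR), with a 95% interval of -1.85 to 2.40. It turned to -0.435 without control 1 and to -0.386 without knockout 3, and was 1.77 without control 3 and 0.738 without knockout 1.

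Igf2bp3 (chromosome 6, 49085223 to 49214957), a fetal form that returns in tumours, had 2.24 and 4.43 CPM in the knockouts, against 2.39 and 2.66 CPM in the controls. Knockout 3 was the high library and the groups overlapped. For Igf2bp3 the log2 difference was 0.40 ± 0.46 (SE; adjusted p = 1.00 in edgeR), or -0.09 for number 1 alone and 0.73 for number 3 alone, and -0.176 without knockout 3. The 95% interval ran from -0.83 to 1.63. Igf2bp1 (chromosome 11, 95957163 to 96005940), the other fetal form, had counts of 21 and 85 in the knockouts, against 11 and 60 in the controls. Control 1 lay under the level of 12 counts and the libraries numbered 3 were the higher in both groups. The log2 difference of Igf2bp1 was 0.27 ± 1.03 (SE; edgeR unadjusted p = 0.807), or 0.65 for number 1 alone and 0.14 for number 3 alone. Its 95% interval, -2.46 to 2.99 on the log2 scale, includes large differences in either direction, as that of Igf2bp2 does at far higher counts. Igf2bp2 held 93.0% and 93.05% of the summed FPKM of the family in the knockouts, against 85.6% and 95.4% in the controls.

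Neither eraser was called between the genotypes. Fto, which demethylates m6A and the related cap-adjacent base, had 56.1 and 52.3 CPM in the knockouts, against 52.3 and 50.2 CPM in the controls. It was the least variable of the 10, with a highest level 1.12 times its lowest. Its log2 difference was 0.08 ± 0.15 (SE; adjusted p = 1.00 in edgeR; 95% interval -0.31 to 0.48), or 0.10 for number 1 alone and 0.06 for number 3 alone. Alkbh5 (chromosome 11, 60536381 to 60558512), the nuclear m6A demethylase, had 175.9 and 153.4 CPM in the knockouts, against 194.2 and 140.1 CPM in the controls. Here the libraries numbered 1 were the higher in both groups. The log2 difference was -0.02 ± 0.22 (SE; adjusted p = 1.00 in edgeR; 95% interval -0.60 to 0.56), or -0.14 for number 1 alone and 0.13 for number 3 alone. Of the summed eraser FPKM, Alkbh5 held 87.2% and 86.5% in the knockouts, against 88.99% and 85.9% in the controls. Per kilobase of the longest coding transcript its share was 72.0% and 70.7% in the knockouts, against 75.3% and 69.6% in the controls.

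**Figure D3:**
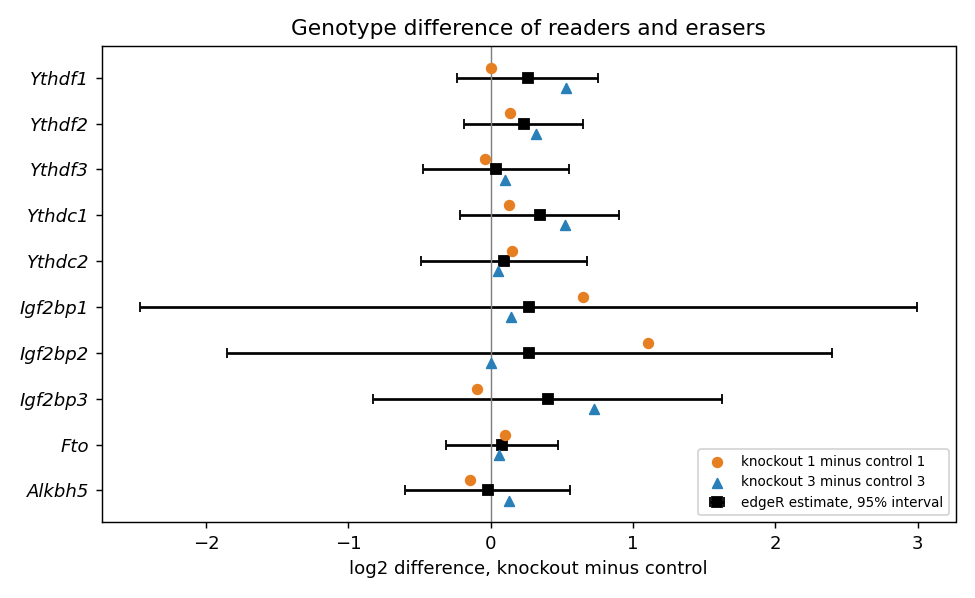
Log2 difference between knockout and control for each gene: black squares with bars give the edgeR estimate and its 95% interval, orange circles the difference within number 1 and blue triangles that within number 3. All 10 intervals include 0, and Igf2bp2 shows 1.11 within number 1 beside 0.0045 within number 3.

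The larger differences among the members lay between the library numbers. Igf2bp2 was 3.15-fold higher in the libraries numbered 3 than in those numbered 1, a log2 difference of 1.66 ± 0.31 (SE, n = 2 per number), with 1.11 among the knockouts and 2.21 among the controls. It was not called by edgeR with genotype in the fit (unadjusted p = 0.00482, adjusted p = 0.120), and was called by DESeq2 (adjusted p = 3.36e-07). edgeR called 0.707% of all tested genes between numbers and 0 members, and DESeq2 6.99% of the genes it adjusted and 1 member. Both libraries numbered 3 stood above both numbered 1 for 5 members (Ythdf3, Ythdc2, Igf2bp1, Igf2bp2 and Igf2bp3), where 26.2% of all tested genes did. They stood below for 1, Alkbh5, where 25.2% of all genes did. Alkbh5 had a log2 difference of -0.33 ± 0.13 (SE, n = 2 per number; edgeR adjusted p = 0.308), and Igf2bp1 one of 1.95 ± 0.61 (adjusted p = 0.237 in edgeR).

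Marker genes of stroma and of the cell cycle were compared between the numbers in the same fit. The 10 fibroblast and stromal markers summed to 658.0 CPM in knockout 3 and 1019 CPM in control 3, and to 368.0 CPM in knockout 1 and 468.0 CPM in control 1. All 10 were tested, with a median log2 difference of 1.08 between numbers, and edgeR called 2: Postn, a matrix protein (log2 difference 2.29, adjusted p = 0.0319), and Acta2, smooth muscle actin (2.31, adjusted p = 0.0316). Col3a1 and Lum, both of the matrix, had log2 differences of the other sign, -0.51 and -1.86, and were not called by edgeR. DESeq2 called 5 of the 10 stromal markers. The 10 cell cycle genes summed to 258.5 and 240.5 CPM in the knockout and control numbered 3, and to 609.4 and 460.3 CPM in those numbered 1, a median log2 difference of -1.47 with 0 called by edgeR and 8 by DESeq2. Their part in the level of Igf2bp2 was not tested, and in bulk RNA fewer cells of a type and less RNA per cell cannot be told apart. The 11 epithelial markers summed to 1.60 and 1.79 CPM in the knockout and control numbered 3, and to 1.97 and 0.939 CPM in those numbered 1.

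**Figure D4:**
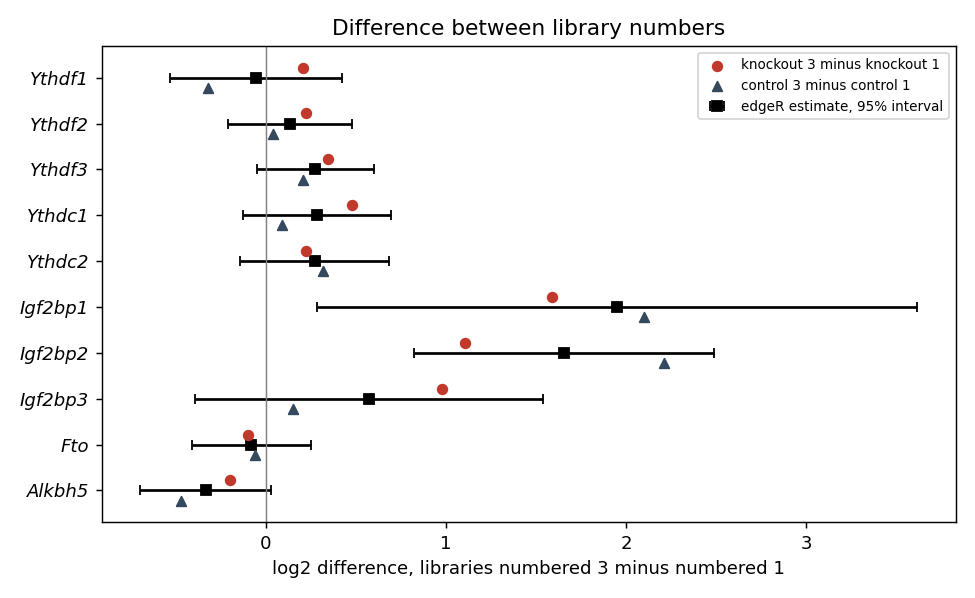
Log2 difference between libraries numbered 3 and numbered 1 for each gene: black squares with bars give the edgeR estimate with genotype in the fit and its 95% interval, red circles the difference among knockouts and dark triangles that among controls. Igf2bp2 and Igf2bp1 stand at 1.66 and 1.95, while the YTH readers lie between -0.05 and 0.28.

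The writers of the mark had no called member either. Of 13 writer genes, 6 lay above 0 and 7 below, the median log2 difference being -0.0065, and edgeR called 0. Both knockouts stood above both controls for 2 of the 13 and below them for 4. Of all tested genes, 13.1% stood above and 13.4% below. Wtap, which anchors the complex in nuclear speckles, had 96.8 and 111.0 CPM in the knockouts, against 147.2 and 135.1 CPM in the controls. Both knockouts lay below both controls, with a log2 difference of -0.44 ± 0.16 (SE; edgeR unadjusted p = 0.0419, adjusted p = 1.00), -0.61 within number 1 and -0.28 within number 3. Mettl14, the partner of Mettl3 that helps bind RNA, had 10.3 and 10.99 CPM in the knockouts, against 13.6 and 22.3 CPM in the controls. Both knockouts lay below both controls, and control 3 was the high library. For Mettl14 the log2 difference was -0.76 ± 0.31 (SE; edgeR unadjusted p = 0.0632, adjusted p = 1.00). Cbll1, a ubiquitin ligase of the complex, had a log2 fold change of 0.51 with -0.0039 within number 1 and 1.004 within number 3, and Trmt112, a partner of several methyltransferases, one of -0.38.

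Among proteins that act beside the readers, edgeR called 0 genes in each list. Of 17 other RNA-binding proteins linked to m6A, 10 lay above 0, with a median log2 fold change of 0.04. G3bp2, a stress granule protein, had 167.3 and 179.0 CPM in the knockouts, against 156.4 and 140.9 CPM in the controls. The log2 fold changes of Fmr1, Srsf3 and Rbmx were 0.25, 0.15 and -0.19. Among 16 deadenylation, decapping and decay factors, 9 lay above 0, with a median of 0.03. The deadenylase genes Cnot6l and Cnot7, whose products are catalytic subunits of CCR4-NOT, had log2 fold changes of 0.34 and -0.34. Cnot6l had 74.1 and 61.9 CPM in the knockouts, against 57.0 and 50.7 CPM in the controls, while Cnot7 had 31.2 and 30.4 CPM in the knockouts, against 42.95 and 35.1 CPM in the controls. Both knockouts thus stood above both controls for Cnot6l and below them for Cnot7, but these genes were named for their small unadjusted p. Over the 16 factors both knockouts stood above both controls for 4 and below them for 2. Of all tested genes, 13.1% stood above and 13.4% below. The scaffold-bound regulator Cnot3 and the decapping enzyme Dcp2 had log2 fold changes of -0.26 and 0.24.

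Within the AlkB dioxygenase family, to which both erasers belong, 5 of 9 members lay above 0, with a median log2 fold change of 0.08. Alkbh5 was the member with the highest FPKM, and the relatives with the smallest unadjusted p were low: Alkbh4 averaged 2.25 FPKM, Alkbh6 2.87, Alkbh7 2.71 and Alkbh8 0.941. Their log2 fold changes were 0.39, -0.21, -0.30 and -0.41 in that order. The tRNA modification enzyme Alkbh8 had 5.92 and 9.87 CPM in the knockouts, against 8.63 and 12.4 CPM in the controls, so the groups overlapped.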

How the data were processed

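Poly(A) RNA libraries were made with dUTP and read as pairs of 150 bases, per the labels' protocols. cutadapt 1.9, HISAT2 2.0.4 and StringTie 1.3.4d, with edgeR and DESeq2, are named in the submitters' processing notes. Neither the genome build nor the use of strand is given in the sources used here. Start and end matched GENCODE M21 (GRCm38) for 94.2% of the identifiers found in both. Per the file headers, the authors deposited estimated counts and FPKM of every gene in each library. The estimated counts were whole numbers, not normalized, and 38.7% to 39.5% of those from 1 to 24 were multiples of 4. In the deposited FPKM, 0 is written as 0.0001. Another 4 value columns matched no sample and were not used.

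Counts were tested with edgeR 4.0.16 (R 4.3.3): TMM scaling, filterByExpr, quasi-likelihood test, two-sided, Benjamini-Hochberg over all 17260 genes tested, threshold 0.05. Genotype was tested without a block, and library number with genotype in the fit. Intervals are 95% and come from the fold change, its F statistic and the fit's degrees of freedom. Within a number, log2 CPM values (prior count 2) were subtracted. The fits were also run on simulated counts, and no result given here rests on that run. DESeq2 1.42.0, limma 3.58.1, other scalings and filters, fits with a replicate block, fits leaving out 1 library in turn and, added after the data were seen, the longest coding transcript as length were alternatives. The members and gene lists were chosen with earlier results of these data known. Besides the members, Mettl3 and Mettl14 and up to 4 genes per pathway list were named: those called, or, with none called, those with the smallest unadjusted p. Marker genes and Malsu1 were named after their values were seen.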

Additional observations from a re-analysis of the deposited data

Results flagged for a closer look

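For 3 of the 10 genes the difference between knockout and control had opposite signs in the libraries numbered 1 and 3, and with 1 library of each kind this was not tested. Over all tested genes 47.0% had opposite signs. The difference within number 3 exceeded that within number 1 by 0.823 on the log2 scale for Igf2bp3, by 0.272 for Alkbh5 and by 0.136 for Ythdf3. Igf2bp3 had 2.24 and 4.43 CPM in knockouts 1 and 3, against 2.39 and 2.66 CPM in controls 1 and 3, and rests on the fewest counts of these 3 genes.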

How the results depend on the processing

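No member was called between genotypes under any alternative to the edgeR fit. Over all genes DESeq2 called 73, DESeq2 with the replicate block 171, and edgeR with the replicate block 0, as without it. Equal numbers are not stated to mark a shared litter or day, although the number 3 minus number 1 differences of knockouts and controls correlated across genes (r = 0.419), which are not independent replicates. With the block, Igf2bp2 had a log2 fold change of 0.552 (edgeR adjusted p = 0.951). Of 99 member values under other tools, scalings, filters and pseudocounts, 99 kept their sign, and of 40 with 1 library left out 29 did; Igf2bp1 gave no value at 1 CPM in 2 libraries. Leaving out 1 library mixes number with genotype. With 1 library left out, log2 differences turned sign for 6 members, without control 1 or knockout 3 in each case (Igf2bp3 without knockout 3 alone), and ranged from -0.144 to 0.217 (Ythdf3), -0.0456 to 0.268 (Ythdc2), -0.803 to 1.80 (Igf2bp1), -0.435 to 1.77 (Igf2bp2), -0.176 to 0.827 (Igf2bp3) and -0.234 to 0.2396 (Alkbh5). Between numbers, DESeq2 called 1208 genes and 1 member (Igf2bp2, log2 1.66), edgeR 122 genes, and edgeR with no low-count filter 0 (the cause was not tested). With the longest coding transcript as length, 5 members changed rank: Ythdc1 to 3, Ythdf1 to 4, Ythdf2 to 5, Fto to 6 and Igf2bp2 to 7. With 2 libraries per group, intervals of the YTH readers and erasers reach 1.39-fold to 1.87-fold.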
